A study of Mus musculus with 8 samples.

Results

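Cathepsins are the main protein-cutting enzymes of the lysosome. The 10 cathepsin genes Ctsa, Ctsb, Ctsc, Ctsd, Ctse, Ctsh, Ctsk, Ctsl, Ctss and Ctsz were taken by symbol from the 35906 genes with transcripts in the abundance tables, and all 10 were also among the 29956 named genes of the FPKM table. RNA came from liver macrophages of wild-type BALB/c mice given carbon tetrachloride (CCl4), a liver toxin used to produce fibrosis, or vehicle, with 4 libraries in each group. The cells had been sorted after collagenase digestion as CD45-positive, F4/80-positive and, per the series' design text, CD31-negative. The CCl4 dose and duration and the age of the mice are not stated in the sources used here. The labels do not tie libraries to separate mice, so the p-values reflect the spread between these samples, part of which may be technical.

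Cathepsins fall into 3 classes by the residue that cuts the peptide bond. Ctsd and Ctse are aspartic proteases, Ctsa is a serine carboxypeptidase, and the other members are cysteine proteases that cut within a chain or trim dipeptides or single residues from its ends. They are made as inactive precursors, carried to endosomes and lysosomes mainly by mannose 6-phosphate receptors, activated in acid, and held in check by cystatins and serpins when they escape. In macrophages they digest engulfed material and process antigens, and secreted forms can cut extracellular matrix.

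Library totals ran from 19489104 to 26196063 estimated counts. Ptprc, Adgre1 and the other macrophage markers were detected in every library: the 12 markers summed to 55710 to 75890 CPM in CCl4 libraries and 27017 to 32163 CPM in vehicle libraries. CPM here are counts scaled to library size with TMM factors. Lyz2, a lysozyme gene, was the highest of them, at 47034 ± 6266 CPM in CCl4 libraries and 16441 ± 2578 CPM in vehicle libraries (SD, n = 4 each). Of the 12 markers Lyz2 and Cd14 rose and Aif1 fell, and the median log2 fold change of the list was 0.02, against -0.03 over all genes tested. Markers of several other cell types moved with treatment. The 10 Kupffer cell markers, genes of the resident liver macrophage, summed to 8588 to 14567 CPM in CCl4 libraries and 24569 to 38473 CPM in vehicle libraries, and 9 of them fell. Of 12 neutrophil markers 6 rose, and their sum was 243 to 539 CPM in CCl4 libraries, against 107 to 244 CPM in vehicle libraries. Of 8 mesothelial markers 6 rose, summing to 66.5 to 191 CPM in CCl4 libraries and 6.92 to 35.7 CPM in vehicle libraries, and of 10 endothelial markers 7 fell, at 217 to 357 CPM in CCl4 libraries and 491 to 888 CPM in vehicle libraries. Among the mesothelial markers, Lrrn4 had 1, 0, 5 and 7 estimated counts in vehicle 1 to 4. It passed the filter on low counts through the CCl4 libraries, so only a rise could be called for it. The other mesothelial markers that rose (Wt1, Upk1b, Krt19, Msln and Upk3b) and the neutrophil marker Lcn2 were close to this case. Each had fewer than 10 estimated counts in at least 1 vehicle library and met the filter in all 4 CCl4 libraries. A fall could hardly have been called for them. Of 10 stellate cell markers 3 rose (Col1a1, Col1a2 and Col3a1) and 3 fell (Rgs5, Lrat and Reln), with sums of 168 to 349 CPM in CCl4 libraries and 125 to 513 CPM in vehicle libraries. Of 8 dendritic cell markers Flt3 rose and Batf3 and Clec9a fell, at 126 to 305 CPM in CCl4 libraries and 102 to 188 CPM in vehicle libraries. Alb alone of 10 hepatocyte markers and Cd79b alone of 6 B cell markers passed, and both fell. Of 7 T and NK cell markers tested, 0 passed in edgeR, 0 had an unadjusted p under 0.05 and DESeq2 called 0. The 13 mitochondrially encoded genes, whose share is also read as a sign of RNA and cell quality, took 0.763% to 1.16% of counts in CCl4 libraries and 1.91% to 5.31% in vehicle libraries. Their part in the cathepsin results was not tested, and in bulk RNA fewer cells of a type and less RNA per cell cannot be told apart.

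Cathepsin transcripts took a larger share of the RNA in CCl4 macrophages, and the increase was unequal among members. Ctsd, Ctse, Ctsk, Ctsl, Ctss and Ctsz rose, Ctsc fell, and Ctsa, Ctsb and Ctsh did not pass the test. The 10 genes held 6.72%, 7.08%, 7.65% and 6.69% of the estimated counts in CCl4 1 to 4 and 4.62%, 3.94%, 4.47% and 4.31% in vehicle 1 to 4. Every CCl4 library lay above every vehicle library. By edgeR's quasi-likelihood test with an adjusted p under 0.05, 6 of the 10 were called higher, where 8.93% of the 15212 genes tested were, and 1 was called lower, where 6.26% were. All 10 members passed the filter on low counts. The median log2 fold change of the 10 was 0.94, beside -0.03 over all genes tested. The all-gene split depended on scaling: 1358 genes were higher and 953 lower with TMM factors, 1082 and 1431 with library size alone (median -0.16), and 1226 and 1356 with upper-quartile factors (median -0.12), while the calls of the 6 higher members and of Ctsc were kept in both. By CPM, the libraries of the groups did not overlap for 8 of the 10, 7 higher and 1 lower, as they did not for 13.0% (higher) and 9.49% (lower) of all genes tested. Overlap depended on the unit: by FPKM the groups overlapped for Ctsa and Ctsz, which were apart by CPM.

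**Figure D1:**
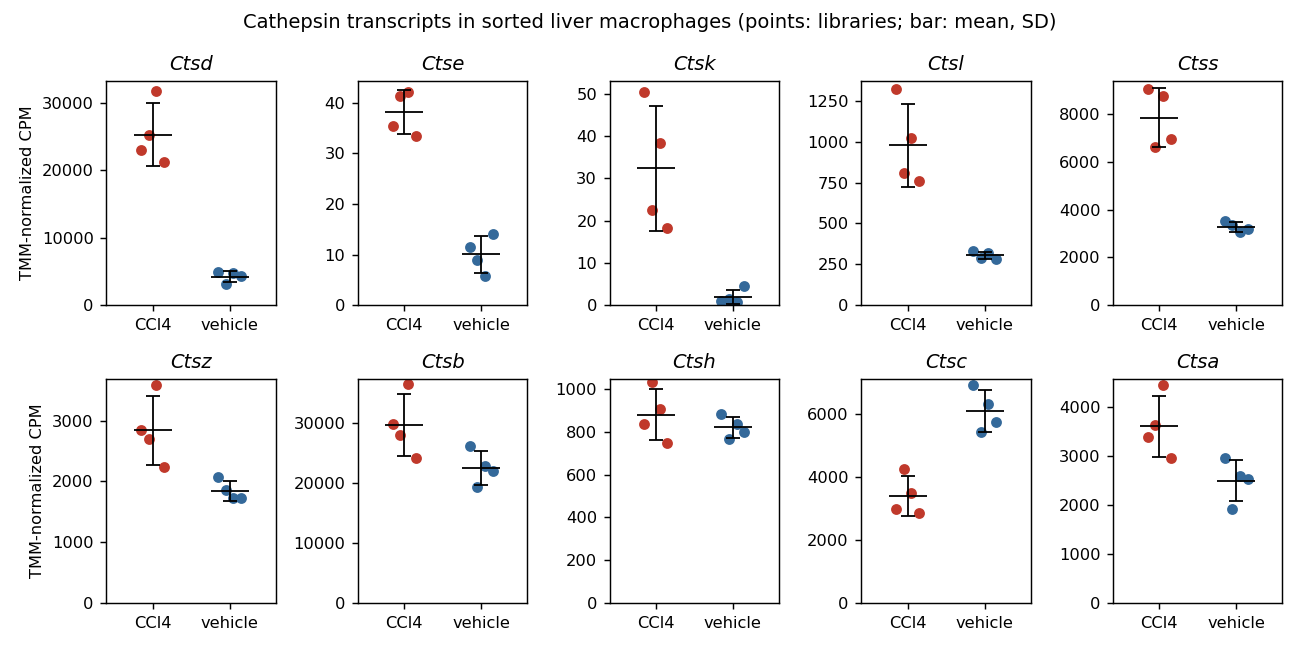
TMM-normalized CPM of each cathepsin, with CCl4 libraries in red on the left and vehicle libraries in blue on the right of each panel; horizontal bars are means and whiskers SD, n = 4 each. Ctsd averaged 25269 CPM in CCl4 libraries against 4248 CPM in vehicle libraries, Ctsc was lower in all 4 CCl4 libraries, and Ctsb and Ctsh overlapped between groups.

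RefSeq promoter windows, from 250 bases before to 50 after an annotated start on GRCm38.p6, matched 7 of the 10 members, Ctsa with 2 windows. Ctsb, Ctse and Ctsh had no entry. The sequences shown are those of Ctsk and Ctsc, the members with the highest and lowest log2 fold change among those called, of Ctsl, a relative of both in the same cysteine class, and of Ctsd and the second Ctsa window, added after their motif matches were seen. The windows are chr3:95498960-95499259 on the plus strand (Ctsk), chr7:88277835-88278134 on the plus strand (Ctsc), chr13:64370471-64370770 on the minus strand (Ctsl), chr7:142387778-142388077 on the minus strand (Ctsd) and chr2:164833523-164833822 on the plus strand (Ctsa). Capitals mark the E-box CACGTG, the core of the motif bound by the MiT/TFE factors that drive many lysosomal genes.
Ctsk: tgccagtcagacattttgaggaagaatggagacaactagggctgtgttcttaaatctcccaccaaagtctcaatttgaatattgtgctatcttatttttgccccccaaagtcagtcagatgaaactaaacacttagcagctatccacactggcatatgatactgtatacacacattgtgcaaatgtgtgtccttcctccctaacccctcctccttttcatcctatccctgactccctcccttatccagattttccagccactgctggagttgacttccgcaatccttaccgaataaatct
Ctsc: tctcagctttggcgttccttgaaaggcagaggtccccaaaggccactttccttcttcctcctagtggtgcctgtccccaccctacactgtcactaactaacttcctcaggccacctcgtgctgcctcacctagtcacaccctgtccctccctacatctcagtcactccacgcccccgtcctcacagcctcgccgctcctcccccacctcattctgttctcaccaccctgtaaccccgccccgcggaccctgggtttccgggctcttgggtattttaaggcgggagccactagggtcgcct
Ctsl: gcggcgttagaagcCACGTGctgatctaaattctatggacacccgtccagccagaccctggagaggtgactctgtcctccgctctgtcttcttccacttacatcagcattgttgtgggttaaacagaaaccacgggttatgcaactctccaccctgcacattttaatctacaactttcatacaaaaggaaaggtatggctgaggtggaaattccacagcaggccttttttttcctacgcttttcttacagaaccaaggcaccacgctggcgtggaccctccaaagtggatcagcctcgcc
Ctsd: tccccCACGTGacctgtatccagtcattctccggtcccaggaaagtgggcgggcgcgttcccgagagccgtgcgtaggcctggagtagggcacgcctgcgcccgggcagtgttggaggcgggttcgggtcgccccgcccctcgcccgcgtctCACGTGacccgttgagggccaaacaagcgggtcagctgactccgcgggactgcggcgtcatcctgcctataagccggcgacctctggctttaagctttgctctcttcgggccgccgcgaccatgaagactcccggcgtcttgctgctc
Ctsa: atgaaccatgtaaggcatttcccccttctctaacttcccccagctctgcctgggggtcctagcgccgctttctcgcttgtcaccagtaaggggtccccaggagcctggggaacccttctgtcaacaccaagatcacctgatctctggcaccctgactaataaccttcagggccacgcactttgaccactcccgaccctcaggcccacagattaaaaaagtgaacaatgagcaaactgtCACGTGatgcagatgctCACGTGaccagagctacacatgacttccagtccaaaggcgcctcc
CACGTG reads the same on both strands, and it occurred in the Ctsd, Ctsl and second Ctsa windows, as it did in 7.15% of 32851 RefSeq windows of 300 bases. In Ctsd it began 245 and 98 bases before the start, in Ctsl 236 bases before it, and in Ctsa 12 bases before it and at base 6 after it. The longer TCACGTGA, which contains CACGTG, was found once in the Ctsd window and 2 times in the Ctsa window, and in 0.974% of all windows. No member window held the longer CLEAR consensus of lysosomal genes, found in 0.326% of all windows, or the AP-1 motif TGANTCA, searched on both strands and found in 7.81%. The match was thus present in Ctsd and Ctsl, which rose, and in the second window of Ctsa, which did not pass the test. The Ctsk, Ctss and Ctsz windows, whose genes rose, and the first Ctsa window held none of the 4 motifs. The RefSeq start lay 211 bases downstream of the start of the leading transcript in Ctsd, 214 upstream in Ctsl and 900 downstream in the second Ctsa window. The distance was 1 base in the first Ctsa window, 46 in Ctsk and 0 in Ctsc. The Ctsd match at 98 bases and both Ctsa matches thus lay downstream of the start of the leading transcript. A window therefore need not be the promoter used in these cells.

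The aspartic proteases rose. Ctsd (ENSMUSG00000007891.16, mm10 chromosome 7, 142375911 to 142388038, minus strand) encodes cathepsin D, the main aspartic endopeptidase of lysosomes. It was at 22941, 25214, 31755 and 21168 CPM in CCl4 1 to 4 and 4907, 3115, 4714 and 4255 CPM in vehicle 1 to 4. The lowest CCl4 library thus lay far above the highest vehicle library. The difference on the log2 scale was 2.57 (SE 0.22, edgeR adjusted p = 2.83e-05) and ran from 2.43 to 2.66 over 18 other settings, past the threshold in all of them. Gm49369, a coding gene that overlaps Ctsd on the same strand, was at 33.4 CPM in CCl4 libraries and 4.74 CPM in vehicle libraries on average. Its reads could be shared with Ctsd, whose level is far above it in both groups.

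Ctse (ENSMUSG00000004552.16, chromosome 1, 131638306 to 131675505, plus strand) encodes cathepsin E, an endosomal aspartic protease. It was low, at 35.4, 41.4, 42.2 and 33.5 CPM in CCl4 libraries and 11.5, 8.87, 5.74 and 14.2 CPM in vehicle libraries. The groups did not overlap, although vehicle libraries spread widely around their mean (coefficient of variation 35.8%). The difference was 1.92 on the log2 scale (SE 0.24, edgeR adjusted p = 0.000323). Napsa, another aspartic protease of the lysosome, also rose, with 67.1, 38.4, 51.4 and 45.9 CPM in CCl4 libraries and 8.45, 13.9, 5.85 and 14.5 CPM in vehicle libraries (log2 fold change 2.25, edgeR adjusted p = 0.000339).

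Among the cysteine endopeptidases, Ctsl, Ctss and Ctsk rose and Ctsb did not pass. Ctsl (ENSMUSG00000021477.9, chromosome 13, 64359337 to 64370890, minus strand) encodes cathepsin L, a broad lysosomal endopeptidase. It was at 1319, 810, 1021 and 757 CPM in CCl4 libraries and 330, 291, 320 and 285 CPM in vehicle libraries. The CCl4 libraries were above all vehicle libraries and more spread, with a coefficient of variation of 26.1% against 7.11% in vehicle libraries. The log2 fold change was 1.67 (SE 0.19, edgeR adjusted p = 0.000202).

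Ctss (ENSMUSG00000038642.10, chromosome 3, 95526786 to 95556403, plus strand) encodes cathepsin S, which stays active at neutral pH and completes the degradation of the invariant chain in antigen-presenting cells. It was at 9067, 6618, 8743 and 6970 CPM in CCl4 libraries and 3526, 3359, 3073 and 3175 CPM in vehicle libraries, again without overlap (log2 fold change 1.26, SE 0.17, edgeR adjusted p = 0.000496). The genes of the pathway in which it acts did not pass the test. Whether their fold changes differed from that of Ctss was not tested. Cd74, the invariant chain, was at 9898 ± 4069 CPM in CCl4 libraries and 12496 ± 1244 CPM in vehicle libraries (SD, n = 4 each; log2 fold change -0.34, edgeR adjusted p = 0.484), and none of the 10 invariant chain and class II genes passed edgeR. None of them had an unadjusted p under 0.05 or passed DESeq2.

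Ctsk (ENSMUSG00000028111.4, chromosome 3, 95499256 to 95509362, plus strand) encodes cathepsin K, a collagen-cutting protease best known from osteoclasts. It had the largest log2 fold change of the 10 and, with Ctse, the lowest level per length. Estimated counts were 1092, 572, 845 and 383 in CCl4 1 to 4 and 22, 34, 22 and 111 in vehicle 1 to 4, which is 50.5, 22.6, 38.3 and 18.2 CPM in CCl4 libraries and 0.881, 1.58, 0.870 and 4.44 CPM in vehicle libraries. All CCl4 libraries lay above all vehicle libraries, vehicle 4 being the highest of its group. The log2 fold change was 4.05 (SE 0.53, edgeR adjusted p = 0.000391), and 4.88 without vehicle 4. On the log2(FPKM + 1) scale, which shrinks changes of low genes, it was 1.79.

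Of 8 osteoclast genes tested 3 rose beside Ctsk. Atp6v0d2, a subunit of the proton pump that acidifies vesicles, was at 528, 217, 504 and 334 CPM in CCl4 libraries and 3.52, 5.25, 3.88 and 6.88 CPM in vehicle libraries (log2 fold change 6.34, edgeR adjusted p = 2.63e-06). Dcstamp, a membrane protein needed for cell fusion, was at 74.3, 9.82, 30.9 and 23.0 CPM in CCl4 libraries and 6.05, 3.81, 0.554 and 2.08 CPM in vehicle libraries (3.47, edgeR adjusted p = 0.0052). CCl4 1 was the highest of the 8 libraries for Ctsk, Atp6v0d2 and Dcstamp, and CCl4 2 the lowest of the CCl4 group for Atp6v0d2 and Dcstamp but not for Ctsk. Without CCl4 1 the log2 fold change of Dcstamp was 2.78. Itgb3, an integrin subunit, rose in the full set (1.26, edgeR adjusted p = 0.0234), but not without CCl4 1, CCl4 3 or vehicle 1 (edgeR adjusted p = 0.0591, 0.0618 and 0.0585). Acp5, the most abundant of the list per length, was at 810 ± 138 CPM in CCl4 libraries and 605 ± 81.2 CPM in vehicle libraries (SD, n = 4 each) and did not pass (0.42, edgeR adjusted p = 0.128).

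Ctsb (ENSMUSG00000021939.8, chromosome 14, 63122462 to 63145923, plus strand) encodes cathepsin B, which cuts within chains and removes dipeptides from their ends. It was at 29886, 28086, 36609 and 24229 CPM in CCl4 libraries and 26195, 19299, 22858 and 21979 CPM in vehicle libraries. The groups overlapped by CPM and by FPKM, since CCl4 4 lay below vehicle 1. By TPM of all transcripts they did not, at 17419 to 19332 TPM in CCl4 libraries and 11632 to 16196 TPM in vehicle libraries. The log2 fold change of 0.40 (SE 0.19) did not pass edgeR (adjusted p = 0.194), nor did it pass in any of the 18 other settings.

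The exopeptidases of the cysteine class went in different directions. Ctsc (ENSMUSG00000030560.17, chromosome 7, 88278085 to 88310888, plus strand) encodes cathepsin C, a dipeptidyl peptidase that activates serine proteases of neutrophils, mast cells and cytotoxic lymphocytes. It was the member that fell: 2988, 4255, 3491 and 2868 CPM in CCl4 libraries and 6924, 5424, 6325 and 5747 CPM in vehicle libraries. The highest CCl4 library was below the lowest vehicle library, and the difference was -0.84 on the log2 scale (SE 0.18; edgeR adjusted p = 0.00803). Its call held in 17 of 18 other settings and was lost with unfiltered FPKM values (limma adjusted p = 0.109).

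Of the serine proteases that Ctsc activates, 5 of 9 were tested and 1 rose. Elane, neutrophil elastase, had 85, 183, 76 and 54 estimated counts in CCl4 1 to 4 and 0 in each vehicle library, which is at least 142.5-fold higher in CCl4 libraries with a floor of 3 counts over the vehicle group. Elane thus passed the filter on low counts through the CCl4 libraries alone, so only a rise could be called for it. Prtn3, another neutrophil protease, was at 2.20 ± 0.738 CPM in CCl4 libraries and 1.54 ± 1.31 CPM in vehicle libraries (SD, n = 4 each) and did not pass (edgeR adjusted p = 0.654). Gzma, a protease of cytotoxic lymphocytes and the most abundant of the list per length, was at 7.08 ± 2.83 CPM in CCl4 libraries and 8.93 ± 3.48 CPM in vehicle libraries and did not pass either (edgeR adjusted p = 0.578). Ctsg, a serine protease of the same kind that bears the name cathepsin G, was set aside by the filter and is named after its values were seen. It had 15, 55, 6 and 17 estimated counts in CCl4 libraries and 0 in each vehicle library, at least 33.3-fold higher in CCl4 libraries with the same floor. Of the 12 neutrophil markers 6 rose, as given above, and their sums overlapped slightly between the groups; their part in these values was not tested.

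Ctsz (ENSMUSG00000016256.10, chromosome 2, 174427493 to 174439039, minus strand) encodes cathepsin X, also called Z, a carboxypeptidase that removes single residues. It was at 2849, 2695, 3597 and 2232 CPM in CCl4 libraries and 2072, 1860, 1726 and 1721 CPM in vehicle libraries. The groups did not overlap, but CCl4 4 lay close to vehicle 1, and the log2 fold change of 0.62 (SE 0.18) was narrowly past the threshold (edgeR adjusted p = 0.0355). This call was lost without CCl4 1, CCl4 2, CCl4 3, vehicle 3 or vehicle 4 (edgeR adjusted p = 0.0596, 0.061, 0.0703, 0.106 and 0.105) and held in 7 of 18 other settings. Ctsh (ENSMUSG00000032359.14, chromosome 9, 90054152 to 90076089, plus strand), which encodes the aminopeptidase cathepsin H, was at 839, 1035, 906 and 748 CPM in CCl4 libraries and 885, 768, 837 and 798 CPM in vehicle libraries. The groups overlapped fully (log2 fold change 0.10, SE 0.15, edgeR adjusted p = 0.724), and the sign turned with library size alone (-0.0323).

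Ctsa (ENSMUSG00000017760.16, chromosome 2, 164832873 to 164841032, plus strand) encodes the serine carboxypeptidase cathepsin A, which also protects beta-galactosidase and neuraminidase in a lysosomal complex. It was at 3391, 3639, 4460 and 2963 CPM in CCl4 libraries and 2961, 1926, 2600 and 2529 CPM in vehicle libraries. The lowest CCl4 library was level with the highest vehicle library, and the log2 fold change of 0.53 (SE 0.19) was past the threshold by DESeq2 (adjusted p = 0.0175) and not by edgeR (adjusted p = 0.0864). Reads of Pltp, which overlaps Ctsa on the other strand and was at 812 CPM in CCl4 libraries and 797 CPM in vehicle libraries on average, cannot be told apart where the genes overlap, because no strand-marking step is named. Of the 3 partner genes of Ctsa, the sulfatase Galns rose, at 53.5, 57.6, 72.5 and 48.7 CPM in CCl4 libraries and 17.1, 9.06, 12.4 and 16.5 CPM in vehicle libraries (log2 fold change 2.08, edgeR adjusted p = 0.00011). Glb1 and Neu1, the beta-galactosidase and neuraminidase, did not pass (log2 fold changes 0.49 and 0.18, edgeR adjusted p = 0.0873 and 0.628).

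**Figure D2:**
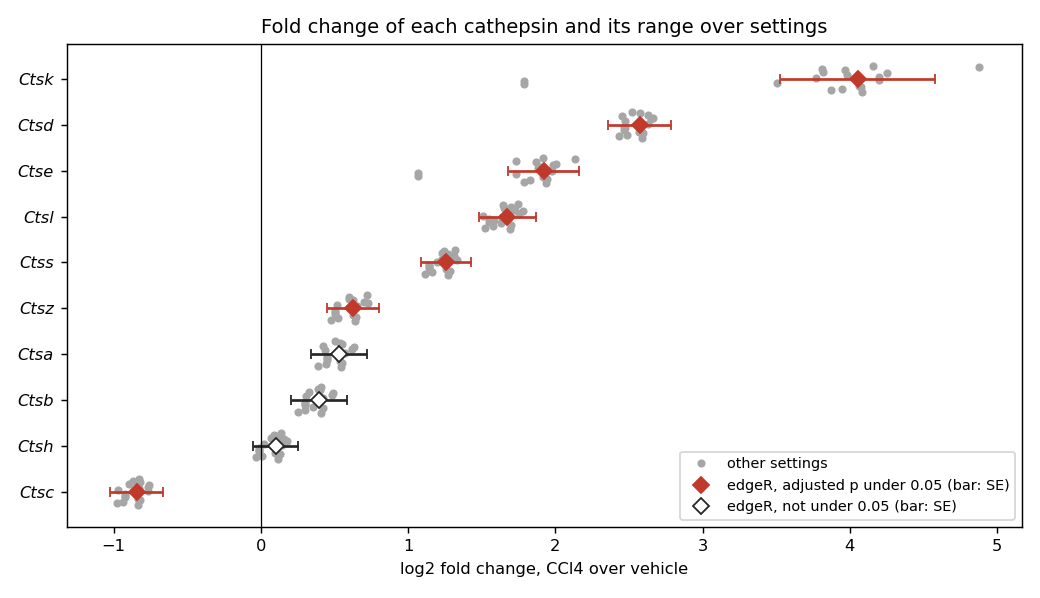
Log2 fold change of each cathepsin, CCl4 over vehicle; diamonds are edgeR estimates with SE bars, filled red where the adjusted p was under 0.05, and grey points are the values under 18 other settings each. Ctsk at 4.05 and Ctsd at 2.57 lay farthest to the right, Ctsc at -0.84 was left of 0, and the points of Ctsh fell on both sides of it.

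The order of the cathepsins by level differed between the groups, and it depended on which transcripts were counted. Levels of different genes are compared per length. By TPM of protein-coding transcripts, a set chosen after seeing the data, Ctsd was the highest member in each CCl4 library, at 14243, 16265, 18114 and 15362 TPM in CCl4 1 to 4, and rank 4 in each vehicle library, at 3039, 1894, 3193 and 2990 TPM in vehicle 1 to 4. Ctss was rank 2 in all 8 libraries. Ctsb was rank 3 in the CCl4 libraries, at 6348 ± 591 TPM, and rank 1 in the vehicle libraries, at 4906 ± 675 TPM (SD, n = 4 each). Ctsc was rank 5 or 6 in CCl4 libraries, at 1786 ± 320 TPM, and rank 3 in vehicle libraries, at 3218 ± 355 TPM. In vehicle libraries Ctss, Ctsc and Ctsd were at 3649 ± 160, 3218 ± 355 and 2779 ± 596 TPM. The neighbours Ctss and Ctsc, and likewise Ctsc and Ctsd, differed by less than the sum of their SDs, although each vehicle library held them in that order. Ctsk and Ctse, the lowest members, changed places among CCl4 libraries. The FPKM values deposited by the authors gave the same ranks to Ctsd, Ctss, Ctsb and Ctsc in every library.

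By TPM of all transcripts, Ctsb was instead rank 1 in all 8 libraries, at 18410 ± 794 TPM in CCl4 libraries and 14761 ± 2106 TPM in vehicle libraries (SD, n = 4 each), and Ctsd was rank 2 in each CCl4 library and rank 4 in each vehicle library. On average 64.7% of the Ctsb TPM came from a transcript of 801 bases annotated as a retained intron, and 33.8% from the coding transcript of 4743 bases. By estimated counts, which are not divided by length, the retained-intron transcript held 18.3% in CCl4 libraries and 18.6% in vehicle libraries. The coding transcript held 81.3% and 80.3% of them. The relative level of Ctsd and Ctsb moved with treatment under each unit. Ctsd over Ctsb was 2.29 to 2.69 in CCl4 libraries and 0.484 to 0.623 in vehicle libraries by protein-coding TPM, and 0.766 to 0.937 in CCl4 libraries and 0.163 to 0.204 in vehicle libraries by TPM of all transcripts. Ctss over Ctsc was 3.24 to 6.28 in CCl4 libraries and 1.03 to 1.28 in vehicle libraries by protein-coding TPM. The groups did not overlap for these ratios.

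**Figure D3:**
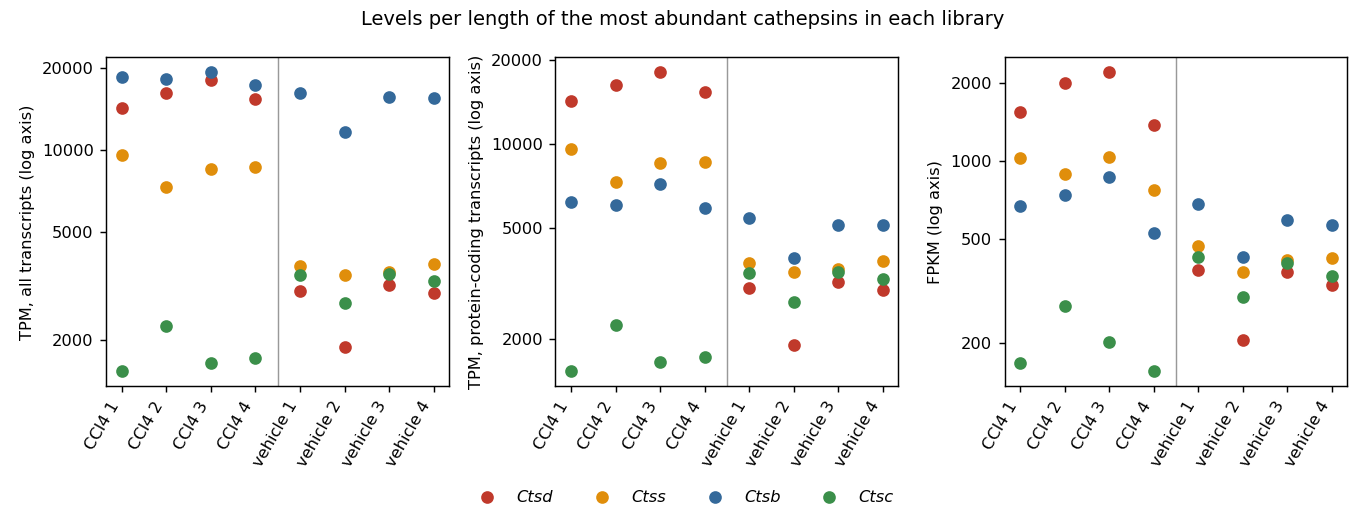
Levels per length of Ctsd (red), Ctss (orange), Ctsb (blue) and Ctsc (green) in each library, CCl4 left and vehicle right of the line, on log axes: TPM of all transcripts, TPM of protein-coding transcripts and FPKM. Ctsb is uppermost in all 8 libraries in the left panel, while Ctsd is uppermost in the 4 CCl4 libraries and lowest of the 4 genes in the 4 vehicle libraries in the middle and right panels.

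The summed TPM of the 10 members was 51498 ± 2392 in CCl4 libraries and 29063 ± 3660 in vehicle libraries (SD, n = 4 each), 1.77-fold higher. Without Ctsd the sum was 35493 ± 1374 TPM in CCl4 libraries and 26280 ± 3073 TPM in vehicle libraries, 1.35-fold higher. Ctsd made up 28.1% to 33.0% of the summed TPM in CCl4 libraries and 8.03% to 10.4% in vehicle libraries. The share of Ctsc was 3.01% to 4.45% in CCl4 libraries and 10.8% to 11.6% in vehicle libraries. These sums and shares are by TPM of all transcripts and depend on that choice. By protein-coding TPM the sum was 38436 ± 2335 in CCl4 libraries and 18269 ± 2114 in vehicle libraries, 2.10-fold higher. Ctsd averaged 15996 and 2779 TPM there, a larger share of the sum in both groups.

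Shares of the leading transcript were compared for the 7 members with at least 2 transcripts above 1% of the gene's TPM, with exact two-sided permutation tests, whose smallest possible p is 0.0286. A member that changed alone could thus reach no adjusted p under 0.2, and a missed threshold does not show that shares were alike. No member passed by share of TPM. The lowest raw p, 0.0571, was that of Ctsc, whose leading coding transcript of 2493 bases held 89.4% ± 1.39 of its TPM in CCl4 libraries and 85.2% ± 3.07 in vehicle libraries (SD, n = 4 each; exact permutation p adjusted over the 7 tests = 0.3). For Ctsl it held 86.0% ± 2.20 in CCl4 libraries and 80.5% ± 4.08 in vehicle libraries (exact permutation adjusted p = 0.3). By estimated counts the leading Ctsl transcript held 94.9% in CCl4 libraries and 91.3% in vehicle libraries without overlap, and its exact permutation p was the smallest possible (0.0286, adjusted 0.2). Ctsh was led by a transcript annotated for nonsense-mediated decay, with 75.2% ± 3.06 of its TPM in CCl4 libraries and 76.4% ± 0.913 in vehicle libraries. Most of the gene-level TPM of Ctsh and Ctsb thus belongs to transcripts not annotated as protein coding. By estimated counts this held for Ctsh but not for Ctsb.

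Cathepsins varied together in part within the groups. As a description over the 8 libraries, deviations from the group mean on the log2 CPM scale had a Pearson r of 0.98 for Ctsa and Ctsd, 0.97 for Ctsc and Ctsh, 0.94 for Ctsa and Ctsb and 0.85 for Ctsl and Ctss. The lowest of the 45 pairs was Ctsc and Ctsk, at -0.35. CCl4 3 was the highest CCl4 library for Ctsd, Ctsb, Ctsa, Ctsz and Ctse, and CCl4 4 was the lowest of the group for these and for Ctsk, Ctsl, Ctsc and Ctsh. Those 2 libraries also had the lowest and the highest TMM factor of the group (0.846 and 1.09), which divide the counts of all genes in a library.

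Over the 8 libraries, the genes whose log2 CPM followed each called member most closely were C3ar1 and Cd84 for Ctsd (Pearson r = 0.998 and 0.997), Fosl2 and Sorl1 for Ctse (0.989 and 0.988), and Npy and 6430531B16Rik for Ctsk (0.988 each). For Ctsl they were Atp6v1c1 and Stxbp3 (0.994 and 0.993), for Ctss Npepps and Anxa4 (0.997 and 0.995), for Ctsz Atp6v0c-ps2 and Rabac1 (0.991 and 0.984), and for Ctsc Ccr3 and Acat1 (0.991 and 0.990). All of these genes differ between the groups, which the points share, so the values describe the group difference as much as any variation within it.

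Genes that carry cathepsins to the lysosome rose in part. All 18 sorting genes listed were tested, and 4 rose: 3 trafficking receptors, and Gnptab of the enzyme that starts the mannose 6-phosphate tag. Igf2r, the large mannose 6-phosphate receptor, was at 59.0, 39.8, 54.5 and 40.7 CPM in CCl4 libraries and 11.9, 8.50, 9.22 and 8.32 CPM in vehicle libraries (log2 fold change 2.35, SE 0.19, edgeR adjusted p = 2.28e-05); the call was lost with unfiltered FPKM values (limma adjusted p = 0.218). Sort1, encoding sortilin, a receptor that carries some lysosomal enzymes without that tag, was at 30.7, 30.0, 29.0 and 24.9 CPM in CCl4 libraries and 4.57, 5.20, 5.93 and 6.04 CPM in vehicle libraries (2.40, SE 0.16, edgeR adjusted p = 7.58e-06). Its relative Sorl1 was at 58.6, 53.6, 66.2 and 58.7 CPM in CCl4 libraries and 14.6, 10.2, 8.66 and 18.0 CPM in vehicle libraries (2.20, SE 0.22, edgeR adjusted p = 8.56e-05). None of these 3 receptors overlapped between groups.

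Gnptab, which encodes the catalytic subunits of the enzyme that starts the mannose 6-phosphate tag, rose by 1.40 on the log2 scale (SE 0.24, edgeR adjusted p = 0.00227), at 31.1 ± 7.72 CPM in CCl4 libraries and 11.7 ± 3.05 CPM in vehicle libraries (SD, n = 4 each). Gnptg, encoding the accessory subunit, was at 53.5 ± 9.25 CPM in CCl4 libraries and 71.7 ± 3.15 CPM in vehicle libraries and did not pass (-0.42, edgeR adjusted p = 0.0763). M6pr encodes the small mannose 6-phosphate receptor and was the most abundant gene of the list per length. It was at 555 ± 79.6 CPM in CCl4 libraries and 400 ± 43.0 CPM in vehicle libraries and was not called (0.47, edgeR adjusted p = 0.0677). It passed in 3 of 18 other settings, 1 of them with CCl4 4 left out (edgeR adjusted p = 0.037). The list median was 0.28. No sorting gene passed edgeR as lower, where 1 had an unadjusted p under 0.05 and 1 passed DESeq2.

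The genes listed as cathepsin inhibitors, among them cystatins, serpins and Slpi, went both ways. Of 28 listed 16 were tested, with 4 higher and 3 lower and a median log2 fold change of 0.28. All the genes called were serpins or Slpi, and no cystatin tested passed edgeR. Whether the called genes act on the cathepsins described above was not tested, so their changes do not show altered restraint of those cathepsins. Cst3, cystatin C, the secreted inhibitor of cysteine cathepsins and the most abundant of the list per length, was at 1918 ± 260 CPM in CCl4 libraries and 1520 ± 302 CPM in vehicle libraries (SD, n = 4 each) and did not pass (0.34, edgeR adjusted p = 0.26). Cstb, the cytosolic cystatin B, was at 262 ± 39.8 CPM in CCl4 libraries and 194 ± 40.7 CPM in vehicle libraries and did not pass (0.43, edgeR adjusted p = 0.139). Ctsl and Ctss thus rose where these cystatins did not pass the test. The difference between their fold changes was not tested.

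The inhibitors that rose were the secreted serine protease inhibitor Slpi (log2 fold change 2.02, edgeR adjusted p = 0.00557), at 378, 746, 227 and 571 CPM in CCl4 libraries and 81.3, 158, 61.2 and 175 CPM in vehicle libraries, and at lower levels Serpinb8 (0.67, edgeR adjusted p = 0.0196), Serpina3n (1.63, edgeR adjusted p = 0.0288) and Serpinb6b (0.94, edgeR adjusted p = 0.0384). Slpi is known as an inhibitor of neutrophil elastase and cathepsin G. Those that fell were Serpina3f (-1.94, edgeR adjusted p = 0.00364), Serpina3g (-1.26, edgeR adjusted p = 0.0152) and Serpinb10 (-2.42, edgeR adjusted p = 0.0328). Serpinb10 had 12, 19.4, 5 and 30 estimated counts in CCl4 1 to 4. It met the filter on low counts through the vehicle libraries, where it was higher, so a rise could hardly have been called for it. The Serpina3 genes belong to a family of related genes, so reads may be split between them and their values are uncertain. Unfiltered FPKM values ended the calls of Slpi and Serpina3g (limma adjusted p = 0.131 and 0.0693), and likewise those of Dcstamp, above, and the peptidase gene Cpq (limma adjusted p = 0.199 and 0.142). Leaving out 1 library ended the call of Serpinb8 (CCl4 1 or vehicle 3), Serpina3n (CCl4 3 or vehicle 1, 2 or 4), Serpinb6b (CCl4 1 or 2 or vehicle 1, 3 or 4) and Serpinb10 (CCl4 1, 2 or 3 or vehicle 2 or 4), with an edgeR adjusted p of up to 0.0669, 0.098, 0.125 and 0.115.

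**Figure D4:**
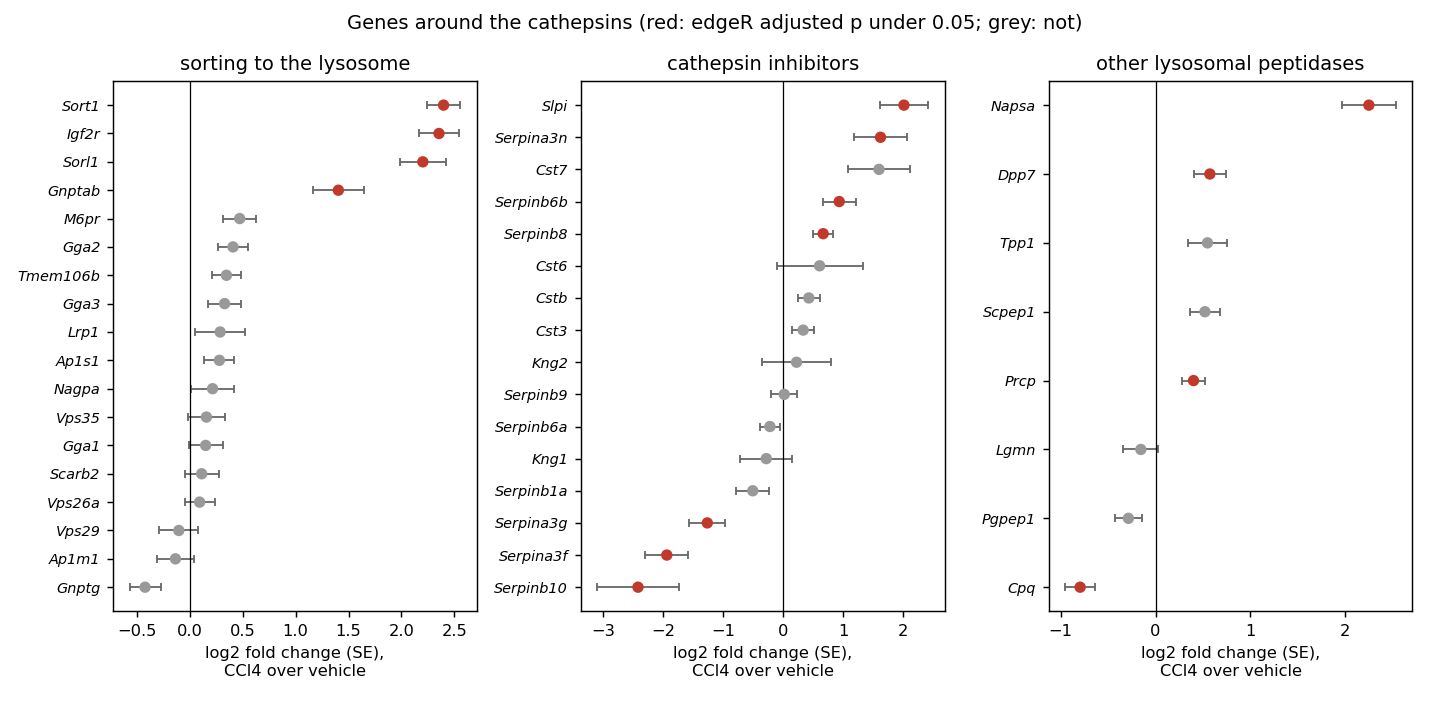
Log2 fold change (SE bars), CCl4 over vehicle, of tested genes listed for lysosomal sorting, as cathepsin inhibitors or as other lysosomal peptidases. Red points passed edgeR at an adjusted p under 0.05 and grey points did not. Sort1 (2.40), Igf2r (2.35) and Sorl1 (2.20) stand at the top of the left panel, and inhibitors lie on both sides of 0 from 2.02 (Slpi) to -2.42 (Serpinb10).

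Of 8 other lysosomal peptidases tested 3 rose, Napsa, Dpp7 and Prcp, and Cpq fell (list median 0.46). Cpq, a carboxypeptidase, was at 236 ± 25.3 CPM in CCl4 libraries and 409 ± 59.1 CPM in vehicle libraries (SD, n = 4 each; log2 fold change -0.79, edgeR adjusted p = 0.00522). The dipeptidyl peptidase Dpp7 (0.57, edgeR adjusted p = 0.039) and the carboxypeptidase Prcp (0.40, edgeR adjusted p = 0.0455) passed in 7 and 4 of 18 other settings, Dpp7 being lost without CCl4 1, 2 or 3 or vehicle 3 or 4 and Prcp without CCl4 1, 2 or 3 or vehicle 1, 3 or 4 (edgeR adjusted p of up to 0.111 each). Lgmn, the asparaginyl endopeptidase legumain that helps to mature several cathepsins, was at 2362 ± 368 CPM in CCl4 libraries and 2630 ± 454 CPM in vehicle libraries (SD, n = 4 each) and did not pass (-0.15, edgeR adjusted p = 0.65).

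Of 13 further genes named cathepsin 3 were tested, and none passed edgeR. Ctsf, the most abundant per length, was at 176 ± 34.4 CPM in CCl4 libraries and 231 ± 34.4 CPM in vehicle libraries (SD, n = 4 each; log2 fold change -0.39, edgeR adjusted p = 0.167). It was the gene of the 3 with an unadjusted p under 0.05, and it passed with library size alone (edgeR adjusted p = 0.021) and with upper-quartile factors (edgeR adjusted p = 0.0348). DESeq2 called none of the 3. Ctso and Ctsw had log2 fold changes of -0.19 and 0.38 (edgeR adjusted p = 0.526 and 0.586).

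Of the 4 MiT/TFE factors, which bind the E-box in lysosomal promoters, Mitf rose and Tfec fell. Mitf was at 47.6, 25.9, 42.7 and 46.3 CPM in CCl4 libraries and 22.6, 26.8, 20.8 and 18.0 CPM in vehicle libraries, with CCl4 2 within the vehicle range (log2 fold change 0.88, SE 0.20, edgeR adjusted p = 0.0124). Its call was lost in all 3 FPKM fits, at 0.23 with a pseudocount of 1, filtered or not (limma adjusted p = 0.334 and 0.644), and 0.40 with 0.1 (limma adjusted p = 0.339). Tfec was at 23.2, 27.8, 22.0 and 22.8 CPM in CCl4 libraries and 38.1, 43.4, 44.4 and 39.3 CPM in vehicle libraries, without overlap (-0.78, SE 0.13, edgeR adjusted p = 0.00207). Tfe3, the most abundant per length, was at 175 ± 19.1 CPM in CCl4 libraries and 154 ± 46.1 CPM in vehicle libraries (SD, n = 4 each) and did not pass (0.19, edgeR adjusted p = 0.645). Transcript levels say nothing of where these proteins are in the cell.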

How the data were processed

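RNA was measured in 8 libraries of sorted liver macrophages, grouped by the treatment label. RNA was amplified with SMART-Seq HT before NEBNext Ultra II library preparation, per the labels' protocols. The submitters' processing notes name kallisto, edgeR, limma and mm10, without versions or settings. The authors deposited estimated counts (not normalized between libraries) and TPM per transcript, and a table of FPKM per gene, whose making is not described.

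Transcripts were assigned to genes with GENCODE M21 by identifier without version. Of 117494 transcripts 116405 matched, 13 of them with the version, so the authors' transcript models can differ. The 1089 unmatched held 0.29% to 0.313% of a library. Estimated counts were summed per gene and rounded. Genes were filtered with filterByExpr (minimum count 10, minimum total 15), leaving 15212 and setting aside 20694, and compared in edgeR 4.0.16 under R 4.3.3 by the two-sided quasi-likelihood test, with TMM factors, no term besides group and Benjamini-Hochberg adjustment. Standard errors of log2 fold changes are their size over the square root of F. Alternatives used DESeq2 1.42.0 and limma 3.58.1 on FPKM. The scripts were tested on simulated data with 200 changed genes. Changes of 1 on the log2 scale were recovered in 61% of cases and changes of 2 in 95%, and 6.59% of the calls were false. A gene that did not pass can thus still differ between the groups. Libraries of a group were no near-duplicates (mean chi-square per gene of at least 29.95 between them, where sampling noise gives about 1).

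The members and lists were chosen with earlier results of these data known. From each list up to 6 genes that passed, smallest p first, and the gene with the highest mean TPM were named, and for each called member the 2 genes with the highest r. Genes named beyond this rule (Gnptg, Cstb, Prtn3, Ctsg, Glb1, Neu1, Ctso, Ctsw and genes that overlap a member) were chosen after their values were seen. Floors and counting error cover reads, not molecules, since no molecular identifiers are named.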

Additional observations from a re-analysis of the deposited data

Results flagged for a closer look

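The share of the leading transcript of Ctse was 90.2% in vehicle 3, and 98.3% to 100% in the other vehicle libraries, so that 1 library stood apart from its group by the gap between it and the nearest of the others. Ctse had 145 estimated counts in vehicle 3, the fewest of the 8 libraries. In all, 34 groups of 4 libraries were looked at for a library that stood apart, and chance alone gives about 1 in 20. The fold change of Ctse without vehicle 3 was 1.73 on the log2 scale (edgeR adjusted p = 0.000574).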

How the results depend on the processing

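Ctsd, Ctse, Ctsk, Ctsl and Ctss were called higher under all 18 alternatives; Ctsz and Ctsc were not, as given above. With each library left out in turn, 5 to 6 members were called higher, 1004 to 1503 of all genes higher and 578 to 1163 lower, 0 to 1 further cathepsins higher (Ctsg), 2 to 4 inhibitors higher, 1 to 4 other peptidases higher and 0 to 1 sorting genes lower. DESeq2 called 5 other peptidases higher and 1 sorting gene lower. Library size alone gave 1431 genes lower, 1 further cathepsin (Ctsf), 1 sorting gene lower and 1 other peptidase higher, and upper-quartile factors 1 further cathepsin (Ctsf) and 1 sorting gene lower. With no low-count filter 1 further cathepsin was higher (Ctsg), and length-scaled TPM counts left 1 other peptidase higher. On FPKM, limma called 556 genes higher and 623 lower with a pseudocount of 1, 536 and 602 with 0.1, and 257 and 234 unfiltered; each left 1 inhibitor lower and 1 other peptidase higher, with 1, 1 and 0 inhibitors higher. Unfiltered, 0 members (Ctsc lost) and 0 other peptidases were called lower. Ctsh reversed to -0.0323 with library size alone and, in the FPKM fits, to -0.0131 with a pseudocount of 1, filtered or not, and -0.0133 with 0.1. The difference in leading transcript share, -0.16 percentage points for Ctsa and 0.26 for Ctsb, reversed to 0.59 and -0.27 by estimated counts and to 1.01 and -0.28 without vehicle 2 and CCl4 4, and ran from -0.87 to 0.77 and from -0.18 to 1.16 with 1 library left out. Without vehicle 2 and CCl4 4, the libraries with most genes detected, 5 other peptidases were higher. The summed level rose 2.10-fold by protein-coding TPM. Same-numbered libraries did not deviate together (r from -0.24 to 0.04), so their numbers were not read as pairs. Between differently numbered libraries r ran from -0.46 (CCl4 4 and vehicle 1) to 0.47 (CCl4 4 and vehicle 2). With a replicate block 5 members and 1 other peptidase were higher, Ctsz being lost (edgeR adjusted p = 0.0637). The cause of these changes was not tested. Depth limits Ctse, Ctsk and Ctsg, which had few counts in vehicle libraries.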
